A study of Mus musculus with 12 samples.

Results

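Iron and heme handling was described through 10 genes, Hmox1, Blvra, Blvrb, Fth1, Ftl1, Tfrc, Slc11a2, Slc40a1, Aco1 and Ireb2, which were chosen by name from the 54532 genes of the deposited table. Each had 1 row in the table, and all 10 passed the filter on low counts that left 15122 genes for testing. C2C12 cells, an immortalized mouse myoblast line that can form myotubes, were transfected with siRNA at 30 nM and harvested after 48 h. Whether 30 nM was the total in the double depletion, and which Ccnf siRNA was used, is not given in the sources used here. The study sequenced poly(A) RNA of 4 groups with 3 libraries each: a control siRNA for siCONTROL, one that targets Keap1 for siKEAP1, one that targets Ccnf for siCCNF, and the Keap1 and Ccnf siRNAs together for siKEAP1/siCCNF. KEAP1 is the adaptor that presents the antioxidant transcription factor NRF2 to the ubiquitin ligase CUL3, and CCNF (cyclin F) is the substrate adaptor of an SCF ubiquitin ligase. All groups are one cell line, and depletion was by transient siRNA, so residual target mRNA remained in each depleted group.

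Heme oxygenase 1 opens the heme ring and releases iron, carbon monoxide and biliverdin, and biliverdin reductases turn biliverdin into bilirubin. Freed or imported iron is stored in ferritin, a shell of heavy and light chains, or leaves the cell through ferroportin. The iron regulatory proteins bind a short RNA hairpin, the iron-responsive element, in several of these mRNAs: in the 5′ untranslated region it holds back translation when iron is scarce, and in the 3′ untranslated region of the transferrin receptor mRNA it protects the message. Several of these genes, Hmox1 and the ferritin genes among them, are known targets of NRF2 and of its competitor, the heme-sensing repressor BACH1.

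The hairpins are shown because they are the letters of the classical iron-responsive element, and lie on different sides of the coding sequence in the ferritin and receptor mRNAs. A search on the sense strand for a C, any 5 bases and then the loop CAGTGN, with the 5 base pairs of the upper stem intact (G-T pairs allowed), found them in 4 of the 10 members, against 160 of 21901 protein-coding genes (0.73%). Fth1, Ftl1 and Slc40a1 each held 1 in the 5′ untranslated region, and Tfrc held 4 in the 3′ untranslated region. Slc11a2, of which some transcripts are known to carry such an element as well, had no match to this pattern. The matches are given 5′ to 3′ from GENCODE transcripts on GRCm38, with the loop in capitals. The letters A to D of the Tfrc elements only order the matches found here by position and are not published names. A match is a description of the letters and not a measured binding site.
Fth1, chr19:9982733-9982759, plus strand: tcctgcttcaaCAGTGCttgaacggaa
Ftl1, chr7:45459780-45459806, minus strand: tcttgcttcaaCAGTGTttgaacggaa
Slc40a1, chr1:45925466-45925492, minus strand: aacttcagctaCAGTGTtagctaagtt
Tfrc element A, chr16:32631220-32631246, plus strand: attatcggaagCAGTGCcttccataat
Tfrc element B, chr16:32631599-32631625, plus strand: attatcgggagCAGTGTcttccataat
Tfrc element C, chr16:32631664-32631690, plus strand: tatatcggagaCAGTGAtctccatatg
Tfrc element D, chr16:32631711-32631737, plus strand: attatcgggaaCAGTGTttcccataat

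Libraries held 18464209 to 37743198 counted reads, and the siCCNF libraries were the deepest as a group. Levels between libraries are given as CPM, the count scaled to the library's total over the tested genes after adjustment by a normalization factor (TMM). Keap1 fell from 87.8 CPM in control cells to 12.6 CPM after siKEAP1 and 24.1 CPM after both siRNAs, and Ccnf fell from 81.1 CPM to 20.5 CPM after siCCNF and 24.5 CPM after both. Keap1 was therefore 1.91-fold higher in the double depletion than after siKEAP1 alone (edgeR adjusted p = 1.07e-06), which stands beside every comparison of those groups below. Ccnf was also 1.37-fold lower after siKEAP1 than in control cells (edgeR adjusted p = 0.000258). The first siCONTROL library and the third siKEAP1/siCCNF library stood apart in how their values depended on the length listed for each gene. Their deviations from the group mean correlated with log2 length at r = -0.31 and r = -0.28 across genes, against -0.09 to 0.21 in the other 10 libraries. All 8 myoblast markers were detected, with summed levels of 1764 to 1929 CPM in control cells and 993 to 1104 CPM in the 3 depleted groups. Markers of differentiating myocytes summed to 76.3 to 168 CPM in control cells, 3.97 to 4.78 CPM after siKEAP1, 24.7 to 35.5 CPM after siCCNF and 12.9 to 15.2 CPM after both, so their levels moved with the groups, and their part in the results below was not tested. Macrophages and erythroid cells, which carry much of the body's heme traffic, were checked in the same way. In every group 6 of 8 macrophage markers lay at 3 counts or fewer per library. The summed level of the 8 was nevertheless 22.2 to 23.2 CPM after siKEAP1 and 14.4 to 16.5 CPM after both siRNAs, against 10.2 to 13.3 CPM in control cells and 10.7 to 13.6 CPM after siCCNF. Cd14, a receptor for bacterial lipopolysaccharide, was the marker that moved, 2.06-fold higher after siKEAP1 (edgeR adjusted p = 1.56e-05) and 1.37-fold higher after both (edgeR adjusted p = 0.00819). Of the erythroid markers 4 or 5 of 8 lay at 3 counts or fewer per library, depending on the group. Hba-a1 nevertheless reached 104 to 276 counts after siKEAP1 against 12 to 26 in control cells. The part of these markers in the results below was not tested. In bulk RNA, fewer cells of a type and less RNA per cell cannot be told apart.

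Levels between genes were compared in the deposited FPKM, which scale fragments to the length listed for each gene and to the library total. The order of levels therefore depends on those lengths. In control cells the ferritin chains led, with Fth1 at 1708 ± 177 FPKM and Ftl1 at 518 ± 40.5 FPKM (SD, n = 3). Hmox1 (24.8 FPKM), Tfrc (19.98 FPKM) and Slc11a2 (15.5 FPKM) followed without overlap. Aco1, Ireb2, Blvra and Blvrb lay between 13.4 and 9.22 FPKM, and each neighbour in that order overlapped the next. Slc40a1 was lowest at 0.699 FPKM. After siKEAP1 the order changed: Blvrb stood directly after Hmox1 at 49.2 FPKM, and Slc11a2, Blvra and Tfrc overlapped at 14.4 to 13.3 FPKM. Fth1, Ftl1 and Hmox1 held the first 3 places and Slc40a1 the last in all 4 groups.

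**Figure D1:**
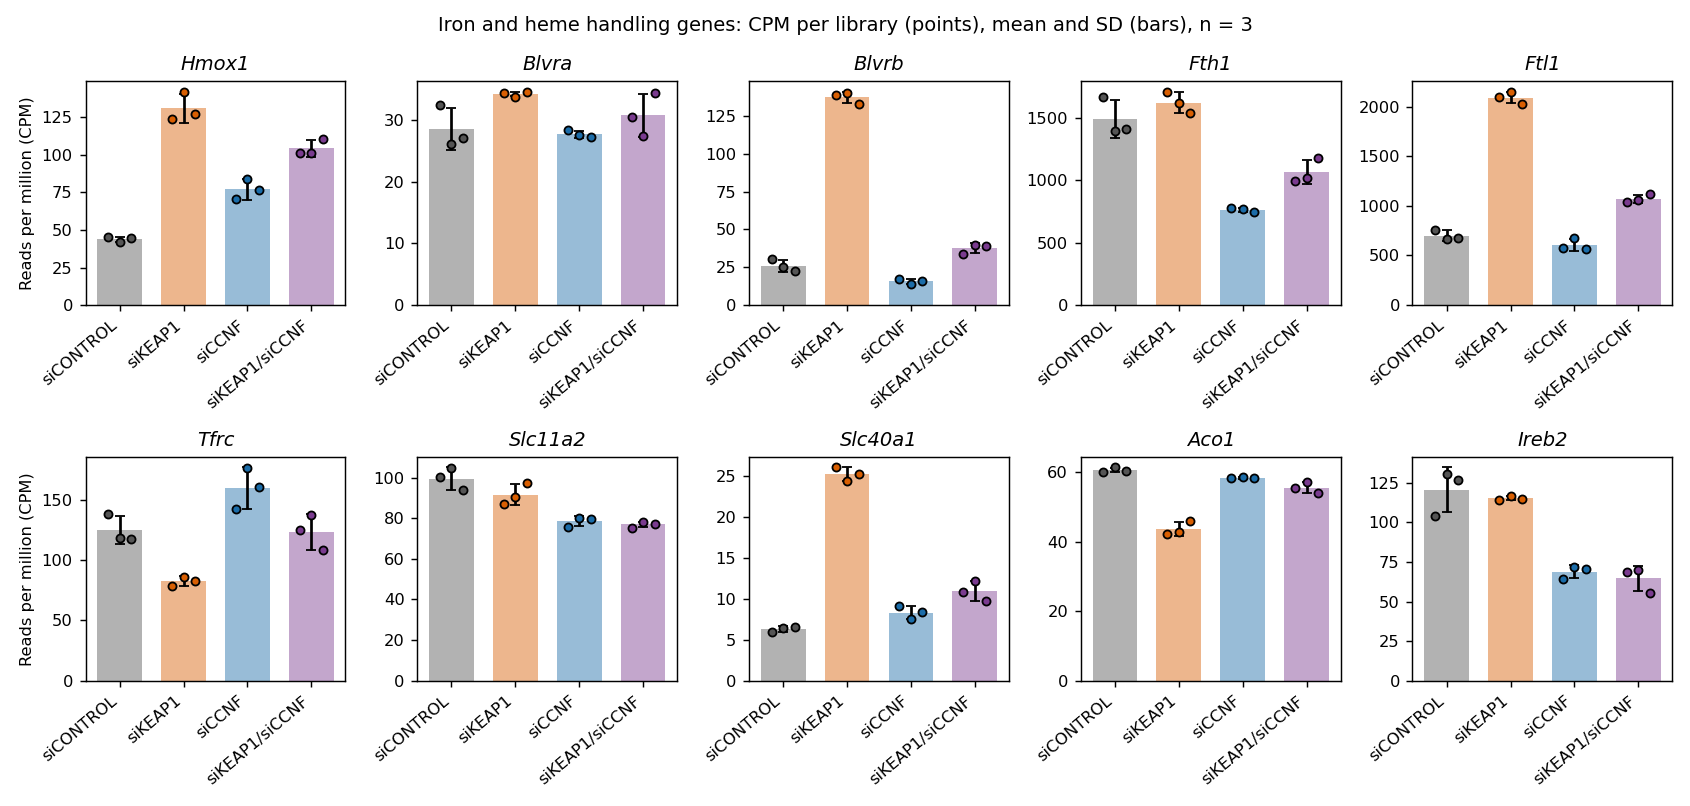
Level of each of the 10 iron and heme genes in every library, in CPM on the vertical axes, by siRNA group on the horizontal axes. Points are libraries (3 per group), and bars are group means with the SD as error bars. Blvrb, Slc40a1, Ftl1 and Hmox1 are highest after siKEAP1, while Fth1 and Ireb2 are lowest in the 2 groups that received siCCNF or both siRNAs.

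To ask how KEAP1 depletion moved iron and heme genes, siKEAP1 was compared with siCONTROL. Of the 10 members 5 rose and 2 fell at an adjusted p under 0.05, beside 40.6% of all genes tested (20.4% higher and 20.2% lower). The response was broad, and the members' share is read against it. Over 2-fold rises were seen for 4 members, beside 7.59% of all genes. The median log2 change of the members was 0.19, and that of all genes was -0.01. As mRNA, Hmox1, Blvrb, Ftl1 and Slc40a1 rose over 2-fold, and Blvra rose narrowly past the threshold. The transferrin receptor and cytosolic aconitase mRNAs fell, and that of the ferritin heavy chain did not pass the test.

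Among the heme breakdown genes, Hmox1 (chromosome 8, positions 75093621 to 75100589 on GRCm38, plus strand) encodes the inducible heme oxygenase. Its level was 45.1, 41.9 and 44.4 CPM in the control libraries and 124, 142 and 127 CPM after siKEAP1. Every siKEAP1 library lay above every control library. The rise was 2.99-fold (log2 1.58, SE 0.08, edgeR adjusted p = 1.04e-08). Blvrb, which encodes biliverdin reductase B, an enzyme that also reduces flavins, stood at 30.3, 24.8 and 22.3 CPM in control cells and 139, 140 and 133 CPM after siKEAP1. It showed the largest rise of the members, 5.31-fold (log2 2.41, SE 0.12, edgeR adjusted p = 6.37e-09). Blvra, the gene of the main adult biliverdin reductase, moved far less, from 32.5, 26.1 and 27.1 CPM to 34.4, 33.8 and 34.5 CPM. Its libraries did not overlap, by a small margin. The 1.20-fold rise passed narrowly (edgeR adjusted p = 0.0476) and was lost without the second or the third control library, any siKEAP1 library, any siCCNF library or the first siKEAP1/siCCNF library, with log2 changes of 0.19 to 0.35 over all 12 omissions. It was also lost without a filter on low counts, in a fit of only the compared libraries and with the length trend removed (edgeR adjusted p = 0.0886, 0.0662 and 0.0713).

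The ferritin chains parted. Ftl1, the light chain that helps form the iron core, had 762, 663 and 673 CPM in control cells and 2095, 2149 and 2031 CPM after siKEAP1, a 2.99-fold rise (log2 1.58, SE 0.08, edgeR adjusted p = 1.04e-08). Fth1, the heavy chain with the ferroxidase site, had 1667, 1395 and 1409.8 CPM in control cells and 1708, 1617 and 1536 CPM after siKEAP1. These libraries overlapped. The log2 change was 0.12 with a 95% interval of -0.06 to 0.30 (edgeR adjusted p = 0.284). It became 0.20 and passed (edgeR adjusted p = 0.0434) when the first control library, the one with the strong length dependence, was left out. As a ratio within a library, Ftl1 over Fth1 moved from a log2 value of -1.09 ± 0.04 in control cells to 0.37 ± 0.06 after siKEAP1 (SD, n = 3), so the light chain mRNA passed the heavy chain in CPM. Both mRNAs carry nearly the same hairpin in the 5′ untranslated region. Reads shared with ferritin pseudogenes could not be traced, since the handling of shared reads is not given in the sources used here. Among the named copies in the table, Ftl1-ps1 held at most 2.59% of the Ftl1 count in any library.

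The receptor for import and the exporter moved in opposite directions. Tfrc, the receptor that brings in transferrin-bound iron, stood at 138, 118 and 117 CPM in control cells and 78.7, 86.2 and 82.9 CPM after siKEAP1. All siKEAP1 libraries were lower, by 1.51-fold (log2 -0.59, SE 0.10, edgeR adjusted p = 0.000437). Slc40a1, which encodes ferroportin, the iron exporter of mammalian cells, rose from 5.96, 6.46 and 6.60 CPM to 26.1, 24.5 and 25.3 CPM. That was 3.99-fold (log2 2.00, SE 0.11, edgeR adjusted p = 1.97e-08), from the lowest level among the members. Slc11a2, the gene of the divalent metal transporter DMT1, had 100.1, 105 and 93.8 CPM in control cells and 86.9, 90.4 and 97.3 CPM after siKEAP1. The groups overlapped, and its log2 change of -0.12 (95% interval -0.26 to 0.02) did not pass the test (edgeR adjusted p = 0.157). With the length trend removed it was -0.21 and passed (edgeR adjusted p = 0.019).

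The 2 genes of the iron regulatory proteins differed as well. Aco1, whose product is an aconitase with an iron-sulphur cluster and an RNA-binding regulator without it, had 60.1, 61.4 and 60.3 CPM in control cells and 42.3, 42.8 and 45.8 CPM after siKEAP1. It was 1.39-fold lower (log2 -0.47, SE 0.06, edgeR adjusted p = 2.66e-05), with no overlap. Ireb2, which encodes the second regulator and is controlled mainly through degradation of its protein, had 104, 130.4 and 127 CPM in control cells and 114, 116 and 115 CPM after siKEAP1. Those ranges overlapped, with a log2 change of -0.06 (95% interval -0.28 to 0.15, edgeR adjusted p = 0.639). The value was -0.17 to -0.01 without single libraries, in none of which it passed. It was -0.17 and passed without both libraries of strong length dependence (edgeR adjusted p = 0.00974) and with the length trend removed (edgeR adjusted p = 0.0163).

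**Figure D2:**
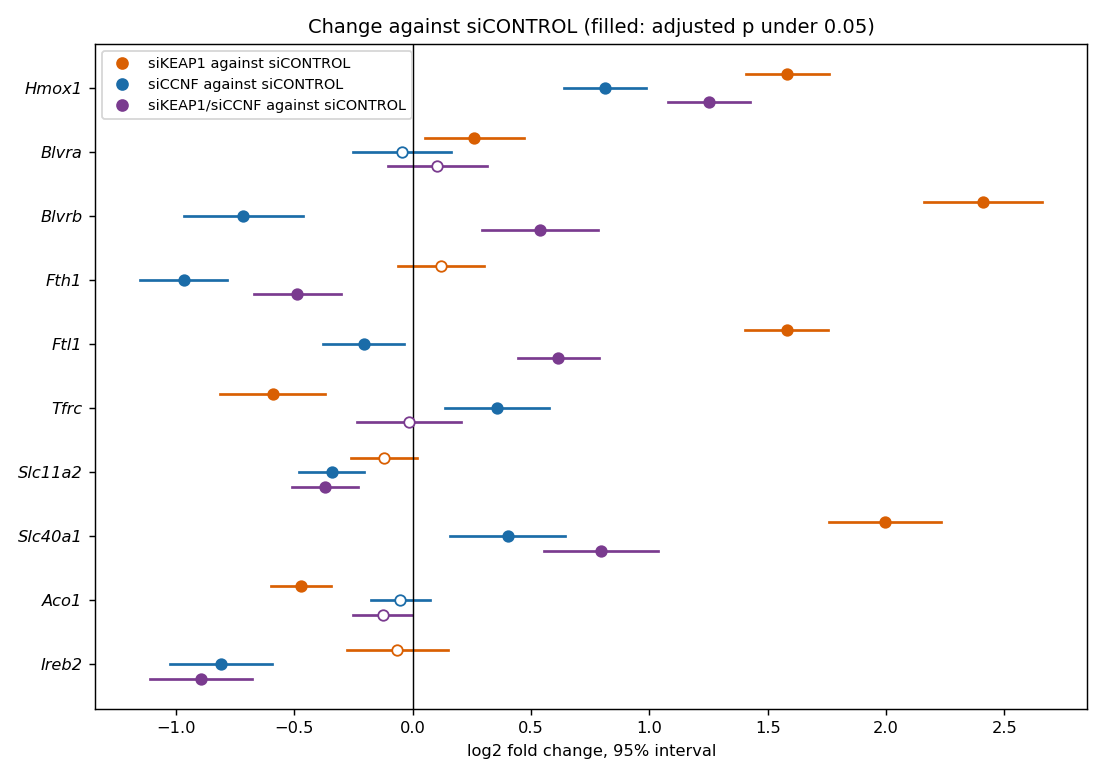
The log2 fold change of each iron and heme gene against siCONTROL (horizontal axes) for the 3 depletions, with 95% intervals as lines. Filled points passed an adjusted p under 0.05. Blvrb and Slc40a1 lie farthest to the right after siKEAP1, and Fth1 and Ireb2 farthest to the left after siCCNF.

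CCNF depletion alone gave another pattern in the same genes. Against siCONTROL 3 members rose and 5 fell, beside 47.9% of all genes called in either direction (22.5% higher and 25.5% lower). The member with the largest change, Fth1, differed 1.96-fold. The median log2 change was -0.13 for the members and 0.01 for all genes. The 3 comparisons with siCONTROL share the same control libraries, so a deviating control library enters each of them.

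Hmox1 reached 70.4, 83.8 and 76.8 CPM after siCCNF, above all control libraries and below all siKEAP1 libraries. Blvrb took the opposite direction, at 17.5, 13.8 and 15.8 CPM, and was 1.64-fold lower than in control cells (log2 -0.72, SE 0.12, edgeR adjusted p = 0.000217). Blvra stayed within the control range at 28.4, 27.5 and 27.2 CPM (log2 -0.05, 95% interval -0.25 to 0.16). Hmox1 was thus higher and Blvrb lower, while Blvra, whose product reduces the biliverdin made by heme oxygenase, did not pass the test.

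Both ferritin chains were called lower. Fth1 fell to 774, 769 and 743 CPM, below all control libraries, a 1.96-fold difference (log2 -0.97, SE 0.08, edgeR adjusted p = 1.08e-06). Ftl1 had 573, 676 and 567 CPM, and its libraries overlapped those of the control group. Its 1.16-fold decrease passed narrowly (log2 -0.21, edgeR adjusted p = 0.0451). Without the first control library the log2 change was -0.14 and did not pass, and the call was also lost without the first or the third siCCNF library, or without any siKEAP1 library or the first or second siKEAP1/siCCNF library, with log2 changes of -0.29 to -0.14 over all 12. It was lost as well with the replicate number as a block (edgeR adjusted p = 0.0602), with a minimum of 10 counts (edgeR adjusted p = 0.0525), in a fit of only the compared libraries (edgeR adjusted p = 0.107) and with limma on log2(FPKM + 1) (adjusted p = 0.0929).

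Of the transporters, Tfrc rose to 142, 176 and 160.1 CPM, 1.28-fold (log2 0.36, SE 0.10, edgeR adjusted p = 0.0108), although the call was lost without the second siCCNF library (log2 0.28, edgeR adjusted p = 0.0541). Slc40a1 had 9.12, 7.50 and 8.40 CPM, all above the control libraries, and rose 1.32-fold (log2 0.40, SE 0.11, edgeR adjusted p = 0.00963). Slc11a2 fell to 75.6, 80.2 and 79.6 CPM, 1.27-fold below control cells (log2 -0.34, SE 0.06, edgeR adjusted p = 0.000663). Import through the receptor and export were thus both higher as mRNA, and the metal transporter was lower.

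Ireb2 was 64.0, 71.6 and 70.6 CPM after siCCNF. It was 1.75-fold lower (log2 -0.81, SE 0.10, edgeR adjusted p = 2.06e-05), with no overlap. Aco1, at 58.3, 58.7 and 58.2 CPM, lay just below all control libraries, and its log2 change of -0.05 (95% interval -0.18 to 0.07) did not pass the test (edgeR adjusted p = 0.467).

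In cells depleted of both, 4 members rose and 3 fell against siCONTROL, beside 44.2% of all genes called (20.6% higher and 23.6% lower), and 1 rose over 2-fold, beside 4.73% of all genes. Hmox1, at 101, 101 and 111 CPM, was that gene (2.38-fold, log2 1.25, SE 0.08, edgeR adjusted p = 9.78e-08). Ftl1 had 1039.5, 1056 and 1117 CPM and was 1.53-fold above control cells (edgeR adjusted p = 3.68e-05), while Fth1 had 994, 1021 and 1176 CPM and was below (log2 -0.49, edgeR adjusted p = 0.000395). The chains therefore changed in opposite directions, and Ftl1 over Fth1 stood at a log2 value of 0.01 ± 0.08 (SD, n = 3).

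Blvrb, at 33.7, 39.9 and 38.8 CPM, was 1.45-fold above control cells (edgeR adjusted p = 0.00178), and Slc40a1, at 10.9, 12.2 and 9.75 CPM, was 1.73-fold above (edgeR adjusted p = 7.40e-05). Tfrc, with 124, 137 and 108 CPM, was spread over the control range, and its log2 change of -0.01 (95% interval -0.23 to 0.20) changed sign with several settings. Slc11a2 fell to 75.4, 78.3 and 77.1 CPM (1.29-fold, edgeR adjusted p = 0.000399) and Ireb2 to 68.8, 69.8 and 55.6 CPM (1.86-fold, edgeR adjusted p = 1.05e-05). Both lay near their siCCNF levels. Blvra had 30.5, 27.4 and 34.4 CPM, and Aco1 had 55.6, 57.1 and 53.9 CPM. Neither of them passed the test (edgeR adjusted p = 0.414 and 0.0943).

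The effect of siCCNF in KEAP1-depleted cells was read from siKEAP1/siCCNF against siKEAP1. It called 9 of 10 members, 7 lower and 2 higher, beside 51% of all genes (24.1% higher and 26.9% lower), and 2 members were over 2-fold lower, beside 9.17% of all genes. Those were Blvrb, 3.66-fold lower (edgeR adjusted p = 3.15e-08), and Slc40a1, 2.30-fold lower (edgeR adjusted p = 7.27e-07). Ftl1 was 1.95-fold lower (edgeR adjusted p = 5.14e-07) and Hmox1 only 1.26-fold lower (edgeR adjusted p = 0.00326). Tfrc (log2 0.58) and Aco1 (log2 0.35) were the members that were higher, and these were also the members that siKEAP1 alone had lowered, in a comparison that shares the siKEAP1 libraries. The residual Keap1 mRNA, higher in the double depletion, differs between the same groups, and its part in these differences was not tested.

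Conversely, the effect of adding siKEAP1 to siCCNF was read from siKEAP1/siCCNF against siCCNF. Of the members 5 were higher, beside 5.19% of all genes called (3% higher and 2.19% lower). They were Blvrb (2.38-fold, edgeR adjusted p = 3.62e-05), Ftl1 (1.77-fold, edgeR adjusted p = 6.12e-05), Fth1 (log2 0.48, edgeR adjusted p = 0.00508), Hmox1 (1.36-fold, edgeR adjusted p = 0.00581) and Slc40a1 (1.31-fold, edgeR adjusted p = 0.0494). Blvrb alone exceeded 2-fold, beside 0.496% of all genes. The Slc40a1 call was lost without any 1 library other than the first control library and the third siKEAP1/siCCNF library (log2 0.30 to 0.46). It was also lost with the replicate number as a block (edgeR adjusted p = 0.0854), without a filter on low counts (edgeR adjusted p = 0.095), in a fit of only the compared libraries (edgeR adjusted p = 0.139) and with limma on log2(FPKM + 1) (adjusted p = 0.0935). Tfrc was on the other side of the threshold by as little (log2 -0.37, edgeR adjusted p = 0.0531), with libraries that did not overlap. It passed with DESeq2 (log2 -0.37, adjusted p = 0.0143). The count of all genes called in this comparison was itself unstable, from 363 to 1404 over the omissions: without the first control library it was 1404, and without the first, second or the third siCCNF library or the second siKEAP1/siCCNF library it was 363, 484, 367 and 402.

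Whether siKEAP1 acted differently in CCNF-depleted and control cells was tested by the interaction, the log2 effect of siKEAP1 with siCCNF minus its effect without. Of the 10 members 6 passed, 2 with a positive and 4 with a negative value, beside 21% of all genes (10.6% positive and 10.5% negative). Slc40a1 had the strongest value, -1.60 (SE 0.15, edgeR adjusted p = 1.75e-05): its siKEAP1 effect was 3.99-fold in control cells and 1.31-fold in CCNF-depleted cells. Blvrb (-1.16, SE 0.16, edgeR adjusted p = 0.000252), Hmox1 (-1.14, SE 0.11, edgeR adjusted p = 2.20e-05) and Ftl1 (-0.76, SE 0.11, edgeR adjusted p = 0.00042) were also smaller on top of siCCNF. Aco1 had the opposite sign, 0.40 (SE 0.08, edgeR adjusted p = 0.0037), with a siKEAP1 effect of -0.47 in control cells and -0.07 in CCNF-depleted cells. Fth1 was positive as well, 0.36 (SE 0.12, edgeR adjusted p = 0.0464), and its call was lost without any 1 library other than the second or the third control library and the first siKEAP1/siCCNF library (0.28 to 0.41 over all 12). It was lost as well with the replicate number as a block (0.36, edgeR adjusted p = 0.0635), with a minimum of 10 counts (edgeR adjusted p = 0.0504) and with limma on log2(FPKM + 1) (adjusted p = 0.166). For Tfrc (0.22, 95% interval -0.09 to 0.53), Slc11a2 (0.09, -0.10 to 0.29), Blvra (-0.11, -0.40 to 0.18) and Ireb2 (-0.02, -0.32 to 0.28) the interaction did not pass. The starting levels in CCNF-depleted cells differed between these genes: Hmox1 stood at 77.0 ± 6.72 CPM after siCCNF, whereas Blvrb stood at 15.7 ± 1.82 CPM, below its control level of 25.8 ± 4.11 CPM (SD, n = 3).

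**Figure D3:**
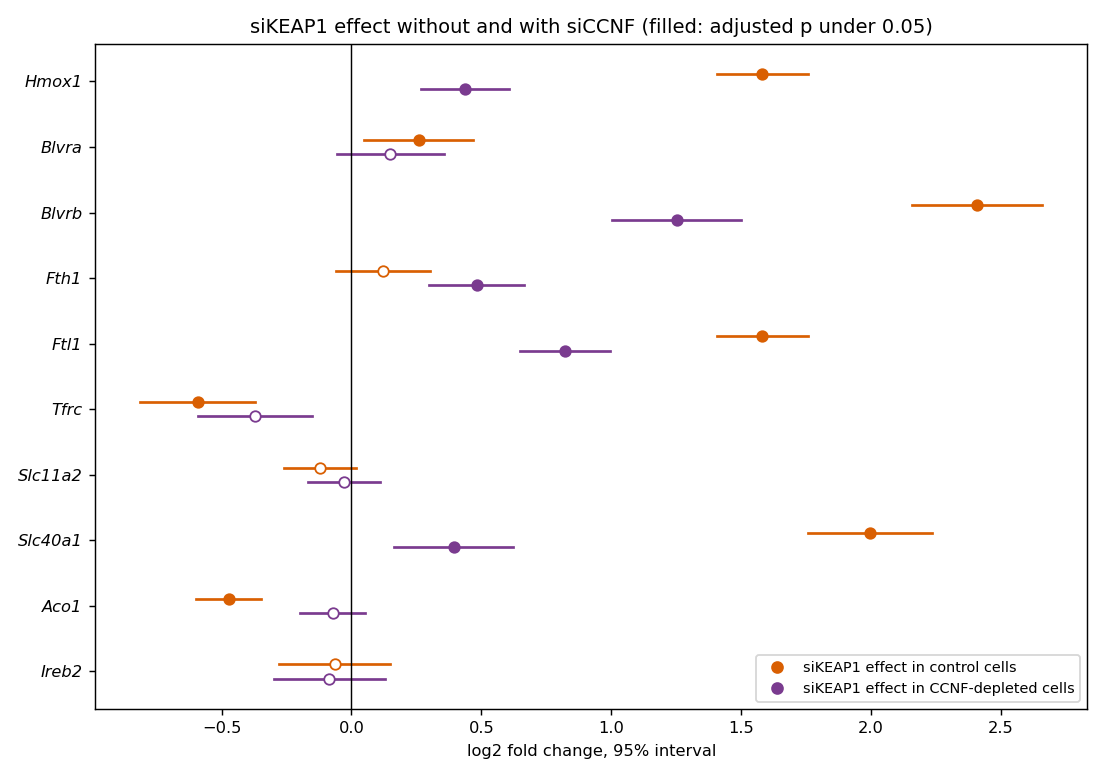
The log2 fold change by siKEAP1 (horizontal axis) of each iron and heme gene in control cells (orange, siKEAP1 against siCONTROL) and in CCNF-depleted cells (purple, siKEAP1/siCCNF against siCCNF), with 95% intervals as lines and filled points where the adjusted p was under 0.05. The intervals of Hmox1, Blvrb, Ftl1, Slc40a1 and Aco1 do not overlap between the backgrounds, while those of Fth1, Slc11a2, Blvra, Tfrc and Ireb2 do.

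Hmox1 was then set against the genes of storage, import and export within each library, as the log2 CPM of Hmox1 minus that of the partner. Each siRNA was tested within the strata of the other by an exact two-sided permutation test over 400 arrangements, whose smallest possible p is 0.005, with adjustment over 10 tests. The test takes the mean effect over both strata, so it does not tell whether the strata differ, and opposite effects can cancel. Relative to Fth1, the mean of Hmox1 was higher in all 3 depletions, by 1.46 after siKEAP1, 1.77 after siCCNF and 1.74 after both. Across strata the siCCNF effect averaged 1.03 (exact permutation p = 0.005, adjusted p = 0.01), and the siKEAP1 effect averaged 0.71 (exact permutation p = 0.07, adjusted p = 0.1). The siKEAP1 strata were unlike: the shift was 1.46 in control cells, whereas in CCNF-depleted cells it went only from 1.77 to 1.74. Relative to Ftl1 there was almost no shift after siKEAP1 alone (0.00), and a shift of 1.02 after siCCNF and 0.63 after both. Here siCCNF averaged 0.83 (exact permutation p = 0.005, adjusted p = 0.01) and siKEAP1 averaged -0.20 (exact permutation p = 0.05, adjusted p = 0.0833). The latter passed without the first control library or the second siKEAP1 library (exact permutation, adjusted p = 0.0417 for each) and on the log2(FPKM + 1) scale (exact permutation, adjusted p = 0.0429).

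Against the import genes, the shifts that passed were those by siKEAP1. Hmox1 over Tfrc was higher by 2.17 after siKEAP1, 0.46 after siCCNF and 1.27 after both. The siKEAP1 effect averaged 1.49 (exact permutation p = 0.005, adjusted p = 0.01), and the siCCNF effect of -0.22 did not pass (exact permutation p = 0.33). That siCCNF average joined opposite directions. The shift was 0.46 in control cells, whereas in KEAP1-depleted cells it went down from 2.17 to 1.27. Hmox1 over Slc11a2 was higher by 1.70, 1.15 and 1.62, with a siKEAP1 effect of 1.08 (exact permutation p = 0.005, adjusted p = 0.01) and a siCCNF effect of 0.54 that did not pass (exact permutation p = 0.08, adjusted p = 0.1). Here siCCNF shifted the ratio by 1.15 in control cells, whereas in KEAP1-depleted cells it went from 1.70 to 1.62. Against the exporter, Hmox1 over Slc40a1 shifted by -0.41 after siKEAP1 alone and by 0.42 after siCCNF and 0.47 after both. The siCCNF effect averaged 0.65 (exact permutation p = 0.005, adjusted p = 0.01). The siKEAP1 effect of -0.18 did not pass (exact permutation p = 0.21) and turned to 0.31 on the log2(FPKM + 1) scale (exact permutation, adjusted p = 0.025), a scale that understates the changes of low genes such as Slc40a1.

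**Figure D4:**
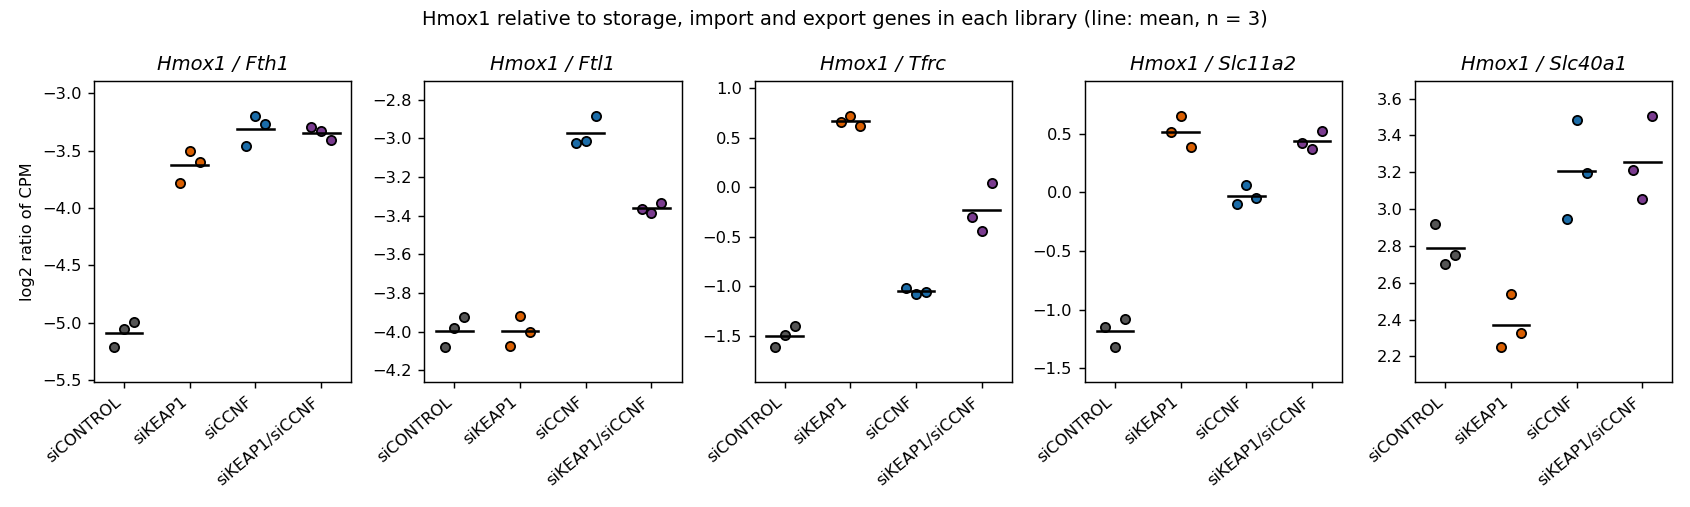
The log2 ratio of Hmox1 to Fth1, Ftl1, Tfrc, Slc11a2 and Slc40a1 within each library (vertical axes, from CPM), by siRNA group. Points are libraries, 3 per group, and lines are group means. The ratio to Ftl1 overlaps between control and siKEAP1 cells and is higher in the groups with siCCNF, while the ratio to Tfrc is highest after siKEAP1.

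The members' profiles over the 12 libraries were compared with that of Hmox1 as a description, since all points share the 4 groups. Pearson's r of log2 CPM was 0.85 for Slc40a1, 0.78 for Ftl1, 0.67 for Blvrb and 0.62 for Blvra, while Fth1 was at 0.02 and Aco1 at -0.80. Among 10001 genes with a mean of at least 3 log2 CPM, the profiles most like that of Hmox1 were those of Clba1 (r = 0.99), Ctsd (0.99), Scmh1 (0.99), Snx10 (0.99) and Psap (0.98). Ctsd encodes the lysosomal protease cathepsin D, and Psap the precursor of the saposins. Ctsd, for example, had means of 259.9 CPM in control cells, 617 CPM after siKEAP1, 437 CPM after siCCNF and 491 CPM after both, and so was between the control and siKEAP1 levels in both groups with siCCNF.

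A promoter of 300 bases (250 before and 50 after the start site) was available from RefSeq on GRCm38.p6 for 7 of the members: Fth1, Ftl1, Tfrc, Blvra, Blvrb, Aco1 and Ireb2. The core of the antioxidant response element, TGACNNNGC, was searched on both strands because NRF2 binds sites with these letters. It was found in 1 of the 7 genes, against 13.99% of 27025 genes with a promoter in the table. The match was in Blvra, the reductase with the smaller response, on the strand opposite to the gene. Its base farthest from the start site lay 49 bases before that site. This is the last base of the core as printed, and the core is in capitals. The other 6 had no such letters in this window, and nothing follows from that about NRF2.
Blvra, chr2:127070598-127070626, minus strand: ggcggagcctTGACCGAGCaattcccgtg

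A list of 58 other genes of iron and heme metabolism placed the members among their pathways, with 49 of them tested. After siKEAP1 16 rose and 5 fell, 21 of 49 beside 40.6% of all genes (20.4% higher and 20.2% lower). After siCCNF 11 rose and 13 fell, 24 of 49 beside 47.9% of all genes, and after both 14 rose and 10 fell, 24 of 49 beside 44.2%. The shares called were thus near those of all genes. The medians of the list were 0.12, -0.09 and 0.05 on the log2 scale, beside -0.01, 0.01 and 0.01 for all genes.

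Heme transport and breakdown showed 4 rises and no falls among 12 genes after siKEAP1, beside 20.4% of all genes higher and 20.2% lower. The strongest was Slc48a1, which encodes the heme transporter HRG1 of endosomes and lysosomes. It had 102, 102 and 99.98 CPM in control cells and 580, 601 and 568 CPM after siKEAP1, 5.76-fold higher (edgeR adjusted p = 2.19e-11). After siCCNF it was 114, 123 and 121 CPM, and after both siRNAs it was 248, 256 and 266 CPM, 2.53-fold above control cells (edgeR adjusted p = 3.92e-09). Among genes chosen here after their values were seen, Flvcr1, a transporter first described as a heme exporter, rose from 10.3 to 12.1 CPM in control cells to 25.3 to 31.8 CPM after siKEAP1 (2.63-fold, edgeR adjusted p = 7.09e-07), and was back at 9.88 to 11.5 CPM after both. After siCCNF, 4 of these 12 genes rose and 4 fell, beside 22.5% of all genes higher and 25.5% lower. Hp, which encodes the hemoglobin-binding haptoglobin, went from 6, 2 and 1 counts to 66, 111 and 130 counts (log2 4.41, SE 0.53, edgeR adjusted p = 1.82e-05). After both siRNAs it had 82, 165 and 96 counts (log2 4.80, edgeR adjusted p = 8.86e-06). Lrp1, a large scavenger receptor that also takes up heme bound to hemopexin, rose from 394, 785 and 861 CPM to 1293, 1427 and 1426 CPM (log2 1.02, edgeR adjusted p = 0.00227). The low control value was from the first control library, and without it the log2 change was 0.75. Cd163, the receptor for haptoglobin with hemoglobin, fell from 4.57, 7.11 and 6.74 CPM to 2.08, 2.22 and 2.25 CPM (log2 -1.49, edgeR adjusted p = 5.35e-05). After both siRNAs it had 3.61, 2.46 and 2.15 CPM (log2 -1.16, edgeR adjusted p = 0.000436).

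Heme synthesis had 3 rises and no falls among 8 genes after siKEAP1, near the 40.6% of all genes called. Alas1, which encodes the rate-limiting first enzyme and was also chosen after its values were seen, had 38.5 to 43.4 CPM in control cells. It was 57.9 to 60.9 CPM after siKEAP1, 56.2 to 62.5 CPM after siCCNF and 67.1 to 77.2 CPM after both, and rose in each (log2 0.55, 0.56 and 0.83, edgeR adjusted p = 6.05e-05, 4.01e-05 and 1.57e-06). Hmox1 and Alas1, the limiting steps of breakdown and synthesis, were thus both higher in all 3 depletions.

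Iron uptake and reduction held 6 rises and 2 falls among 10 genes after siKEAP1, beside 20.4% of all genes higher and 20.2% lower. Lcn2, whose product binds iron-loaded siderophores, went from 10, 11 and 18 counts to 82, 166 and 163 counts (log2 3.21, SE 0.34, edgeR adjusted p = 7.76e-06). After siCCNF alone it had 302, 349 and 476 counts (log2 4.18, edgeR adjusted p = 3.81e-07), and after both siRNAs 373, 618 and 471 counts (log2 4.83, edgeR adjusted p = 1.24e-07). Steap3, a ferrireductase of the transferrin cycle chosen after its values were seen, had 49.1 to 56.5 CPM in control cells and took opposite directions, at 116 to 119.9 CPM after siKEAP1 (log2 1.17, edgeR adjusted p = 1.15e-07) and 23.0 to 27.8 CPM after siCCNF (log2 -1.02, edgeR adjusted p = 4.26e-07). After both it was at 27.6 to 29.7 CPM. Tfr2, the second transferrin receptor, fell narrowly after siKEAP1 from 20, 19 and 15 counts to 8, 12 and 14 counts (log2 -0.83, edgeR adjusted p = 0.0496), and the call was lost without the first or second library of either group, without any siCCNF library, without the second siKEAP1/siCCNF library (log2 -0.84 to -0.68), with DESeq2 (log2 -0.83, adjusted p = 0.0765) and with the replicate number as a block (log2 -0.84, edgeR adjusted p = 0.07).

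In the hepcidin axis, Hfe, an HLA-like partner of the transferrin receptors, rose after siKEAP1 from 3.85 to 4.67 CPM to 11.9 to 14.2 CPM (log2 1.61, edgeR adjusted p = 2.78e-06). Hfe2, the gene of hemojuvelin, which is strongly expressed in skeletal muscle, went from 63, 22 and 28 counts to 4, 0 and 4 counts (log2 -3.90, SE 0.61, edgeR adjusted p = 0.000202) and stood at 4, 6 and 1 counts after both (log2 -3.69, edgeR adjusted p = 0.000181). After siCCNF its decrease (log2 -1.30, edgeR adjusted p = 0.029) was lost without the first control library (log2 -0.79) or any 1 of the siCCNF libraries (log2 -1.40 to -1.22). Hfe2 and the markers of differentiating myocytes were both lowest after siKEAP1, and the part of differentiation in this was not tested. Tmprss6, a protease that cleaves hemojuvelin, fell after siCCNF from 23, 20 and 38 counts to 7, 8 and 2 counts (log2 -2.86, SE 0.60, edgeR adjusted p = 0.00162). After both siRNAs it had 1, 10 and 14 counts (log2 -2.05, SE 0.57, edgeR adjusted p = 0.0103).

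Iron-sulphur assembly had 1 gene called of 10 after siKEAP1, beside 40.6% of all genes. That gene was Isca1, an assembly factor of mitochondrial clusters, which had 67.4, 51.4 and 49.5 CPM in control cells and 22.8, 20.7 and 21.9 CPM after siKEAP1 (log2 -1.37, SE 0.11, edgeR adjusted p = 4.34e-07). After siCCNF it had 54.2, 54.2 and 50.2 CPM, within the control range. Among storage, chaperone and control genes 2 rose and 1 fell of 5 after siKEAP1, beside 20.4% of all genes higher and 20.2% lower.

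**Figure D5:**
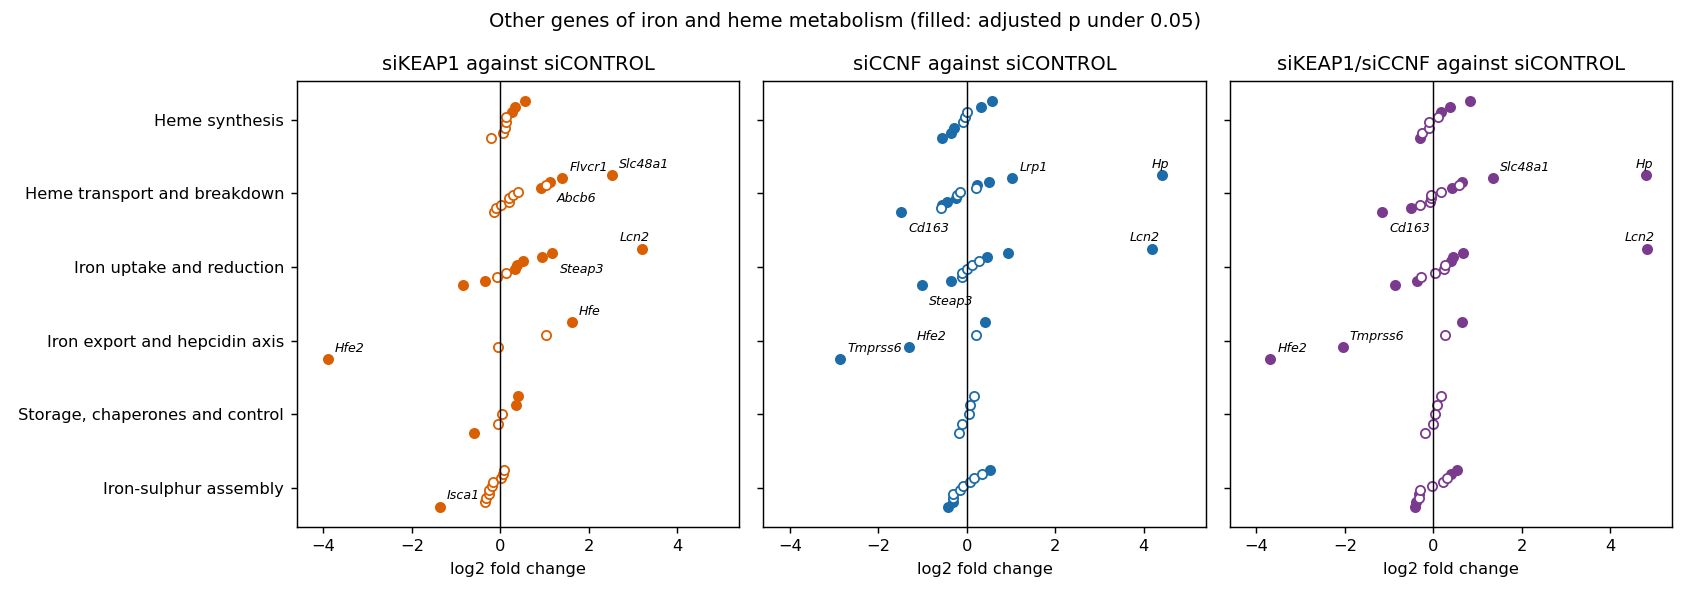
The log2 fold change against siCONTROL (horizontal axes) of the 49 tested genes of the wider iron and heme list, by role, for the 3 depletions. Each point is a gene, filled where the adjusted p was under 0.05. Filled points that differed over 2-fold in a panel are labelled there. Slc48a1 and Lcn2 lie farthest to the right after siKEAP1 and Hfe2 farthest to the left.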

How the data were processed

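C2C12 myoblasts were transfected with the control siRNA, siKEAP1, siCCNF or both, and 12 libraries were grouped by their labels. Poly(A) libraries were prepared and sequenced by a service provider. HISAT2 and GRCm39 are named in the submitters' processing notes, whereas the identifiers and positions of the deposited table matched the GRCm38 annotation (54409 of 54532 identifiers, 98.3% with both ends identical). Coordinates are therefore given on GRCm38. The counting tool is not given in the sources used here. The authors deposited raw counts of reads per gene, and FPKM values computed by the authors' provider. Their columns of log2 fold changes and p-values for each depletion were not used.

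The tests used edgeR 4.0.16 (R 4.3.3) on the counts: filterByExpr, TMM scaling, a quasi-likelihood fit of 4 group means, and Benjamini-Hochberg adjustment over 15122 genes. A gene with an adjusted p under 0.05 was called. CPM is the count per gene scaled to the library's total over the tested genes times its TMM factor. These factors were 0.971 to 1.023. Log2 CPM for ratios and correlations used a prior count of 2. Intervals are 95%. Totals were 18464209 to 37743198 counts per library, so members with under 10 CPM rested on the fewest reads. The labels call the replicates biological but do not tell how cultures were separated. No pair of libraries agreed within counting noise.

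The members and lists were chosen with earlier results of these data known. Named were all members, both siRNA targets, the 5 genes most like Hmox1 and, of the wider list, up to 3 largest rises and falls per comparison with siCONTROL. Alternatives were DESeq2 1.42.0, scaling without TMM, no filter, a minimum of 10 counts, the replicate number as a block, limma 3.58.1 on log2(FPKM + 1), only the libraries compared, and each library left out. Chosen after seeing the data were a correction for a length trend (spline with 5 degrees of freedom) and the omission of the 2 libraries with the strongest trend. Scripts were tested on simulated data. Hjv is listed as Hfe2.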

Additional observations from a re-analysis of the deposited data

Results flagged for a closer look

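The siKEAP1 effect differed between CCNF-depleted and control cells for 6 of the 10 members, beside 21% of all genes. This was by the interaction term of edgeR with adjustment over all genes. The log2 interaction was -1.14 for Hmox1, -0.76 for Ftl1, -1.60 for Slc40a1 and -1.16 for Blvrb, each smaller on top of siCCNF, and it was 0.36 for Fth1 and 0.40 for Aco1. With the 2 libraries of strongest length dependence left out, the values were -1.20, -0.85, -1.48, -1.31, 0.20 and 0.43 in that order. The Fth1 call was lost with the replicate number as a block (0.36, edgeR adjusted p = 0.0635), with a minimum of 10 counts and with limma. It was also lost in 9 of the 12 omissions of single libraries. Keap1 mRNA was itself less depleted in the double depletion, and its part in these differences was not tested.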

How the results depend on the processing

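The count of members called stayed within 1.5 times its value in all 125 recomputations. With 10 members, a rise could not cross that limit where 7 or more were called at first. Without single libraries, the count was 6 to 8 after siKEAP1, beside 5113 to 6686 of all genes. In siKEAP1/siCCNF against siCCNF it was 4 to 6, beside 363 to 1404 of all genes. Without both libraries of strong length dependence, 9 members were called after siKEAP1, against 7. Of 1250 recomputed member log2 changes, 1167 had the same direction and side of the threshold, 53 lost and 14 gained the call, and 16 changed sign, in each of these without passing the test; the cause was not tested. Changed signs were Blvra after siCCNF (0.058 without both libraries of strong length dependence, -0.10 to 0.058 without single libraries), Tfrc after both siRNAs (0.0014 with a minimum of 10 counts, 0.0083 with the length trend removed, 0.15 without both libraries, -0.11 to 0.069 without single libraries), Slc11a2 in siKEAP1/siCCNF against siCCNF (0.00066 without TMM), Ireb2 there (0.0080 without both, -0.15 to 0.0073 without single libraries) and the Ireb2 interaction (0.13 with the length trend removed, 0.18 without both, -0.080 to 0.081 without single libraries). Gained calls included Fth1 after siKEAP1 without both libraries (0.20, edgeR adjusted p = 0.00237), Ireb2 (-0.17) and Slc11a2 (-0.21) after siKEAP1 with the length trend removed, and Tfrc against siCCNF without both (-0.29). Slc11a2 against siKEAP1 lost its call with the length trend removed (-0.13).

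Of the ratios, Hmox1 over Slc40a1 by siKEAP1 turned from -0.18 to 0.31 on log2(FPKM + 1), and Hmox1 over Ftl1 by siKEAP1 passed there (-0.22) and without the first control or the second siKEAP1 library, ranging from -0.22 to -0.17 without single libraries. The wider list against siCCNF had 5 genes called, 8 with DESeq2 and 12 without both libraries, and its interaction had 11, and 18 with the length trend removed. All genes called against siCCNF numbered 785, and 1257 with DESeq2, 516 with only the compared libraries, 1194 with the length trend removed and 2186 without both; the interaction had 3181, and 4806 without both.

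Whether replicate numbers pair the libraries was not settled. Same-numbered libraries of different groups correlated at -0.27 to 0.20, with 4 of 18 over 0.1. Differently numbered ones correlated at -0.28 to 0.39, with 5 of 36 over 0.1. Outside their own group, 6 of 12 libraries correlated best with a library of their own number. With the replicate number as a block, 7, 7, 7, 9, 4 and 5 members were called in the 6 comparisons, against 7, 8, 7, 9, 5 and 6. All genes called numbered 5953, 7081, 6509, 7554, 642 and 2964 with the block, against 6133, 7247, 6687, 7713, 785 and 3181, so calls fell among all genes as well. Of the wider list, 3 genes were called against siCCNF with the block, against 5. The calls lost under the block were Ftl1 after siCCNF, Slc40a1 against siCCNF, the Fth1 interaction and Tfr2 after siKEAP1. Depth limits Hfe2, Hp, Tmprss6 and Tfr2, which had few counts.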
